A study of Rattus norvegicus with 42 samples.

Results

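The genes described here are 8 genes whose proteins build or serve the connecting cilium of retinal photoreceptors, namely Rpgr, Rpgrip1, Spata7, Cep290, Iqcb1, Ahi1, Lca5 and Ift88. They were chosen by name, and all 8 were found among the 32623 genes of the deposited count table and among the 18094 genes with enough reads to be tested. Retinas of adult rats were profiled by polyA RNA sequencing in 6 groups, in a study of damage by bright light and of cerium oxide nanoparticles (nanoceria) given into the eye. Control rats had no treatment, and the light damage group had light of 15000 lux for 24 h and no injection. The vehicle and nanoceria groups had an injection into the vitreous of the eye, of vehicle or of nanoceria at 1 mM, and no damaging light. The vehicle plus light and nanoceria plus light groups had the same injections and the same light. The libraries analysed, labelled as biological replicates, numbered 14 without light (5 control, 5 vehicle, 4 nanoceria) and 17 with light (7 light damage, 5 vehicle plus light, 5 nanoceria plus light). The sources used here do not give the strain or sex of the rats, the make-up of the vehicle or the times of injection and tissue collection.

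The outer segment of a rod or cone is a modified primary cilium, and the connecting cilium is its transition zone, a narrow bridge of microtubules through which the proteins of the outer segment must pass. Its proteins form the links between microtubules and membrane, gate the entry of cargo and load the trains of intraflagellar transport (IFT). Inherited loss of such proteins in people causes Leber congenital amaurosis, retinitis pigmentosa or, where the kidney and brain are also affected, Senior-Loken and Joubert syndromes.

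Library totals ran from 25158407 to 182162368 counts (median 106887932), and the shallowest library, light damage 1, also had the most unusual scaling factor (0.812). Libraries vehicle 4 and 7, and light damage 4 and 7, were far closer to each other than any other pair. The mean chi-square per degree of freedom over genes was 4.29 and 10.2 for these pairs and 85.2 for the next closest pair, so they differed by more than sampling noise and were kept as separate samples. The labels call them separate biological replicates, but whether each pair came from 1 animal, or from repeat libraries of 1 sample, could not be settled from the counts, and if so those groups hold fewer animals. With each pair summed to 1 sample, Rpgrip1 (log2 fold change -0.53, edgeR adjusted p = 0.0181) and Spata7 (0.18, edgeR adjusted p = 0.0254) were still called for light and Ahi1 was not. Y-linked transcripts were high in 16 of the 31 libraries, 4 of 5 in control and 1 of 5 in vehicle, and Rpgr is X-linked. With the level of Y-linked transcripts as a covariate, the same 3 members were called for light as without it. The label retina was checked against rod markers, all 13 of which were present. Their mean log2 CPM (CPM, counts per 1000000 on TMM-scaled libraries) was 9.87 to 10.7 in the control libraries and 7.29 to 9.46 in the nanoceria plus light libraries.

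The promoters below are those of the 3 genes that were called for light and of Cep290, whose level varied with that of Rpgrip1. Each runs from 250 bases before to 50 bases after the gene start in RefSeq on build GRCr8, 5′ to 3′, and capitals mark a motif match. They lie on the plus strand at chr15:27282748-27283047 (Rpgrip1), chr7:37196533-37196832 (Cep290), chr6:123609364-123609663 (Spata7) and chr1:17581781-17582080 (Ahi1).
Rpgrip1: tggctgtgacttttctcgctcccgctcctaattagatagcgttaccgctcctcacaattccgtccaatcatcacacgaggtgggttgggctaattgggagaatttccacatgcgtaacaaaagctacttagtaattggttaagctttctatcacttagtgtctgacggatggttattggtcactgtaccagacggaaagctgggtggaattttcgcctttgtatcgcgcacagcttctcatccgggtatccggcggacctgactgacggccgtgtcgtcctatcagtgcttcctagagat
Cep290: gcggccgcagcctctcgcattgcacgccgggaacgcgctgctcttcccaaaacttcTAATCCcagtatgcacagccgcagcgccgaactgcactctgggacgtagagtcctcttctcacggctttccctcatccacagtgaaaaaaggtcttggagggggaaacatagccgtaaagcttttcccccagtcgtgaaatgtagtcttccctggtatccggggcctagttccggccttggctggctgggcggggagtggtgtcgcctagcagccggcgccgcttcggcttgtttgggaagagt
Spata7: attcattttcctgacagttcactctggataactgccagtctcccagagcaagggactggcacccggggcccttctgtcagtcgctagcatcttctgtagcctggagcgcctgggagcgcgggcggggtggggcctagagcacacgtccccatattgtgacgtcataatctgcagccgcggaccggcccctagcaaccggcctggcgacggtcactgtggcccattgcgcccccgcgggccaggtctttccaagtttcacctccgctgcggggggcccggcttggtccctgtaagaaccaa
Ahi1: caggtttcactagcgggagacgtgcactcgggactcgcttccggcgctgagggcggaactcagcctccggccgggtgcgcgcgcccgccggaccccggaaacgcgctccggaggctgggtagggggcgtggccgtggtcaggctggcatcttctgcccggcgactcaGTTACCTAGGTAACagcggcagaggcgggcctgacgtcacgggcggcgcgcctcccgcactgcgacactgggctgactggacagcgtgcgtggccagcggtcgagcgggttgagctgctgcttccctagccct
The search covered both strands for 4 motifs, and all 8 members had an entry, with 9 promoters in all. Ahi1 held GTTACCTAGGTAAC, which starts at position -83 relative to the gene start. It matches the X-box of the RFX factors, which control many ciliary genes, with both its arms, GTNNCC and GGNAAC, 2 bases apart. That motif stood in 1.28% of 33469 promoters of this length. Cep290 held TAATCC, the core bound by the photoreceptor factors CRX and OTX2, at position -194, and 7.17% of promoters held it. A lone X-box arm, GTTGCC, was present in the promoters of Lca5, Rpgr and Ift88 and in 12.2% of all promoters. The core TGCTGAC of the site of the rod factor NRL, which 4.44% of promoters held, had no match in the members. Rpgrip1 and Spata7 held none of the 4 motifs in this window. A match is a description of these letters.

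Light was followed by a lower level of Rpgrip1, a slightly lower level of Ahi1 and a slightly higher level of Spata7, while the other 5 members did not pass the test. These results come from the comparison of light with no light pooled over the 3 injection states, 17 libraries against 14, in the quasi-likelihood test of edgeR with Benjamini-Hochberg adjustment over all genes. The threshold for a call was an adjusted p of 0.05. The call of Ahi1 ended in 2 other fits and that of Spata7 in 3, while that of Rpgrip1 held in all. Without injection the log2 fold change with light was -0.06 for Ahi1 and 0.02 for Spata7 (edgeR adjusted p of 0.725 and 0.903). With 3 of 8 members called, the share was near that of all genes tested, of which 37.1% were called. The median log2 fold change of the members was -0.04, beside 0.02 for all genes. In RNA of a whole retina, fewer cells of a type and less RNA per cell cannot be told apart, and light-exposed libraries had lower rod markers (12 of 13 fell, median log2 fold change -1.65) and cone markers (8 of 10 fell and 2 rose, median -0.79). By injection state, 1 of the 10 cone markers fell without injection, 7 with vehicle and 4 with nanoceria (10.6%, 7.17% and 5.78% of all genes), and 2, 2 and 1 rose (11.9%, 9.67% and 8.15%).

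**Figure D1:**
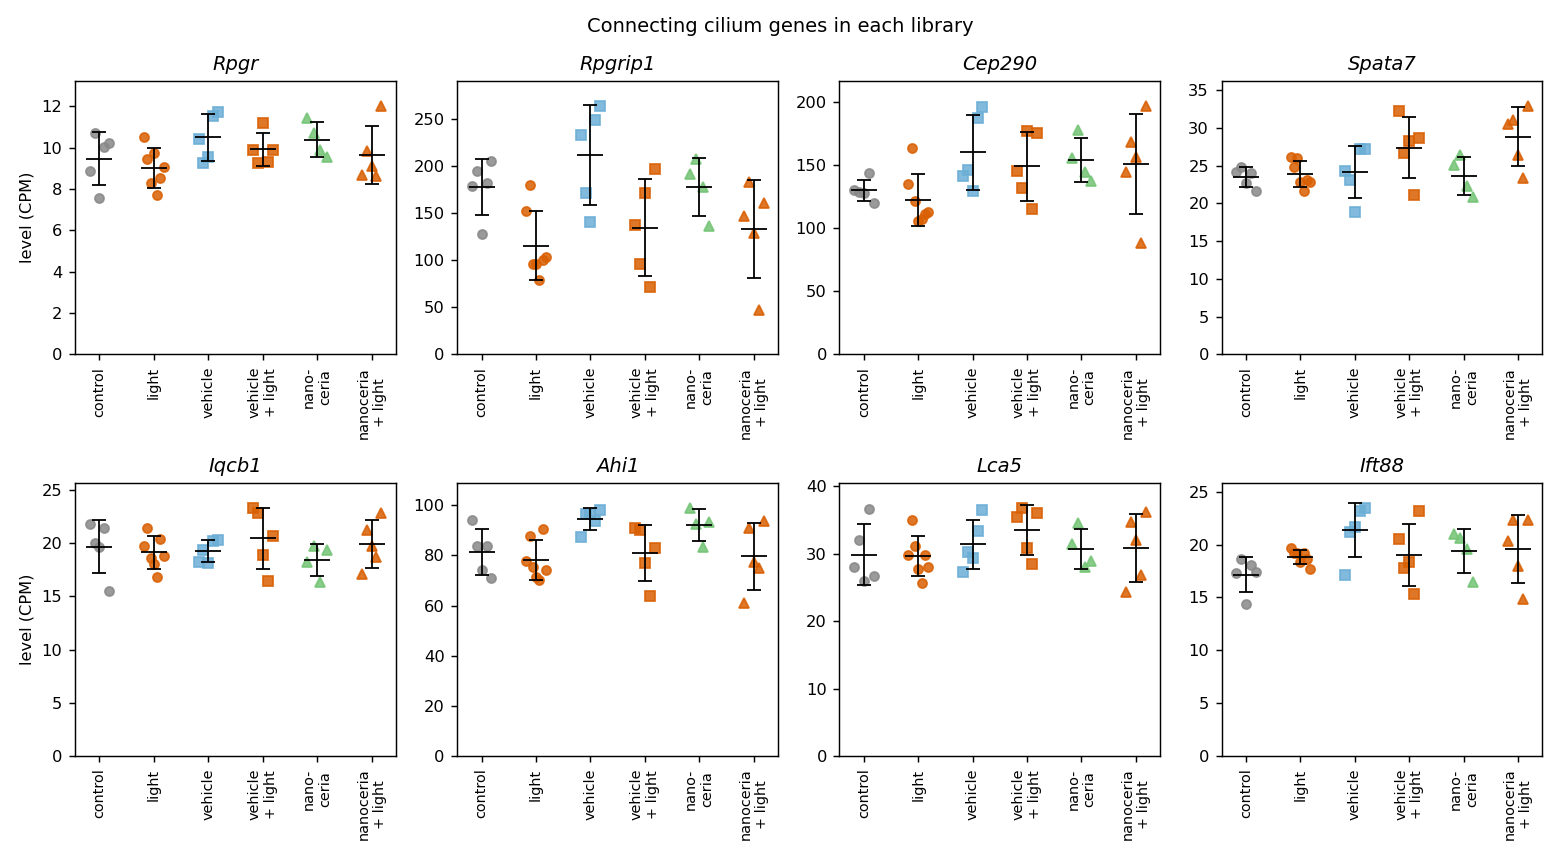
Level of each member in CPM in each library, by group, with the group mean (line) and SD (bar). Light-exposed groups are orange, and light stands for the light damage group. Rpgrip1 had its 8 lowest values in light-exposed libraries, and the groups overlapped for all 8 genes.

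Rpgr, Rpgrip1 and Spata7 form the first set. Rpgr, a homologue of an exchange factor for the GTPase Ran, is held in the connecting cilium by Rpgrip1, and Spata7 binds Rpgrip1 and keeps the distal part of the connecting cilium in order.

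Rpgrip1 (ENSRNOG00000011809) was measured at 179, 195, 128, 183 and 205 CPM in the control libraries. The light damage libraries ranged from 79.3 to 181 CPM with a median of 99.95. Of the 7 light damage libraries, 5 were below the lowest control, and light damage 1 and 2 were within the control range. In the vehicle group the levels were 233, 172, 141, 249.8 and 264 CPM, the last pair being the near-identical libraries 4 and 7. With vehicle plus light they were 138, 96.2, 172, 71.5 and 197 CPM. The lowest 3 of these were below every vehicle library, and the highest was above the vehicle libraries 2 and 3. The nanoceria libraries had 191, 207, 178 and 136 CPM, and the nanoceria plus light libraries 147, 184, 129, 46.7 and 161 CPM. Nanoceria plus light 4, the lowest of all 31 libraries for this gene, also had the lowest rod markers.

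Pooled over injection states, Rpgrip1 fell, with a log2 fold change of -0.57 ± 0.16 (SE, edgeR adjusted p = 0.00706). This is a change of -32.4% with a 95% interval from -46.5% to -14.7%, and 8 of 17 light-exposed libraries were below every library without light. The same libraries taken by injection state gave log2 fold changes of -0.63 ± 0.26 (SE) for light damage against control, -0.65 ± 0.29 for vehicle plus light against vehicle and -0.42 ± 0.30 for nanoceria plus light against nanoceria. None of the 3 passed (edgeR adjusted p of 0.0883, 0.126 and 0.418).

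Spata7 (ENSRNOG00000003955) was measured at 24.2, 24.9, 22.7, 24.0 and 21.7 CPM in control, and at 21.6 to 26.1 CPM with a median of 23.1 in light damage. These groups covered nearly the same range. The vehicle libraries had 24.3, 23.1, 18.8, 27.2 and 27.2 CPM and the vehicle plus light libraries 32.3, 26.7, 28.2, 21.1 and 28.6 CPM. The nanoceria libraries had 25.1, 26.3, 22.3 and 20.8 CPM and the nanoceria plus light libraries 30.4, 31.04, 26.4, 23.3 and 32.9 CPM. The 6 values above every library without light all came from injected, light-exposed eyes. The pooled log2 fold change was 0.16 ± 0.06 (SE, edgeR adjusted p = 0.0341), a change of 12.0% with a 95% interval from 2.77% to 22.1%. By injection state it was 0.02 ± 0.10 without injection, 0.18 ± 0.11 with vehicle and 0.29 ± 0.11 with nanoceria, and none of these passed (edgeR adjusted p of 0.903, 0.276 and 0.0899). Light against no light did not differ detectably between vehicle and no injection (log2 difference 0.16 ± 0.14) or between nanoceria and vehicle (0.11 ± 0.15, edgeR adjusted p of 0.987 and 1). The 95% intervals of these differences ran from -9.06% to 36.6% and from -13.4% to 33.8%. The pooled call for Spata7 ended in 3 other fits and on leaving out any of 10 libraries, with edgeR adjusted p up to 0.0845 on leaving out a library.

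Rpgr (ENSRNOG00000003013) stayed between 7.56 and 12.0 CPM over all libraries, with group means from 9.03 ± 0.963 (SD, n = 7, light damage) to 10.5 ± 1.13 (SD, n = 5, vehicle). Its pooled log2 fold change was -0.09 ± 0.06 (SE, edgeR adjusted p = 0.268), with a 95% interval from -13.6% to 2.41%. At this precision a decrease larger than that of Ahi1 was within the interval.

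Cep290, Iqcb1 and Ahi1 form the second set. Cep290 links the microtubules of the transition zone to the ciliary membrane and gates the entry of proteins. Iqcb1, also called nephrocystin-5, binds Cep290 and calmodulin, and Ahi1, also called jouberin, is a transition zone protein mutated in Joubert syndrome.

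Ahi1 (ENSRNOG00000013969) was measured at 94.2, 83.9, 74.4, 83.6 and 70.9 CPM in control, and at 70.2 to 90.4 CPM with a median of 75.4 in light damage. The vehicle libraries had 87.3, 96.6, 96.5, 93.8 and 98.3 CPM and the vehicle plus light libraries 90.8, 90.2, 77.0, 63.9 and 83.2 CPM. The nanoceria libraries had 99.1, 92.5, 83.4 and 93.5 CPM and the nanoceria plus light libraries 61.04, 90.8, 77.4, 75.1 and 93.8 CPM. The 9 libraries of injected eyes without light were all at 83.4 CPM or more, a level that libraries of every other group also reached, and the control libraries spread over the range of the light damage libraries. The pooled log2 fold change was -0.16 ± 0.06 (SE, edgeR adjusted p = 0.0292), a change of -10.7% with a 95% interval from -17.9% to -2.93%. By injection state it was -0.06 ± 0.10 without injection, -0.22 ± 0.10 with vehicle and -0.21 ± 0.11 with nanoceria (edgeR adjusted p of 0.725, 0.152 and 0.224). The pooled call ended when libraries were scaled by their totals alone (-0.09, edgeR adjusted p = 0.319), when the near-identical pairs were summed (edgeR adjusted p = 0.0533), and without control 1, nanoceria 1 or vehicle plus light 4 (0.0512 to 0.0566 for edgeR's adjusted p).

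Cep290 (ENSRNOG00000056458) was measured at 130.1, 129, 128, 143 and 119.7 CPM in control, and at 106 to 164 CPM with a median of 113 in light damage. The vehicle libraries had 141, 146, 129, 188 and 196 CPM and the vehicle plus light libraries 146, 132, 177, 115 and 176 CPM. The nanoceria libraries had 155, 178, 145 and 137 CPM and the nanoceria plus light libraries 145, 168, 156, 88.3 and 197 CPM. The lowest and the highest library of all 31 were both in the nanoceria plus light group, replicates 4 and 5. The pooled log2 fold change was -0.07 ± 0.09 (SE, edgeR adjusted p = 0.584), with a 95% interval from -16.5% to 8.35%.

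Iqcb1 (ENSRNOG00000038868) ranged from 15.5 to 23.4 CPM, and its group means lay between 18.4 ± 1.501 (SD, n = 4, nanoceria) and 20.4 ± 2.87 (SD, n = 5, vehicle plus light). Its within-group coefficient of variation was 10.4%, the smallest of the 8, beside 28.1% for Rpgrip1. The pooled log2 fold change was 0.05 ± 0.06 (SE, edgeR adjusted p = 0.486), with a 95% interval from -4.02% to 12.2%.

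Lca5 and Ift88 form the third set, that of transport. Lca5 encodes lebercilin, which binds proteins of intraflagellar transport, and Ift88 is a core subunit of the IFT-B complex that carries cargo from the base towards the tip of the cilium. Lca5 (ENSRNOG00000009580) ranged from 24.4 to 36.9 CPM, with group means from 29.6 ± 2.97 (SD, n = 7, light damage) to 33.6 ± 3.67 (SD, n = 5, vehicle plus light). Ift88 (ENSRNOG00000009278) was measured at 17.3, 18.6, 14.4, 18.1 and 17.4 CPM in control and at 17.6 to 19.7 CPM with a median of 19.2 in light damage. The pooled log2 fold change was 0.03 ± 0.06 (SE) for Lca5 and -0.01 ± 0.06 for Ift88 (edgeR adjusted p of 0.757 and 0.946). The 95% intervals ran from -6.74% to 11.8% for Lca5 and from -8.87% to 8.70% for Ift88.

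**Figure D2:**
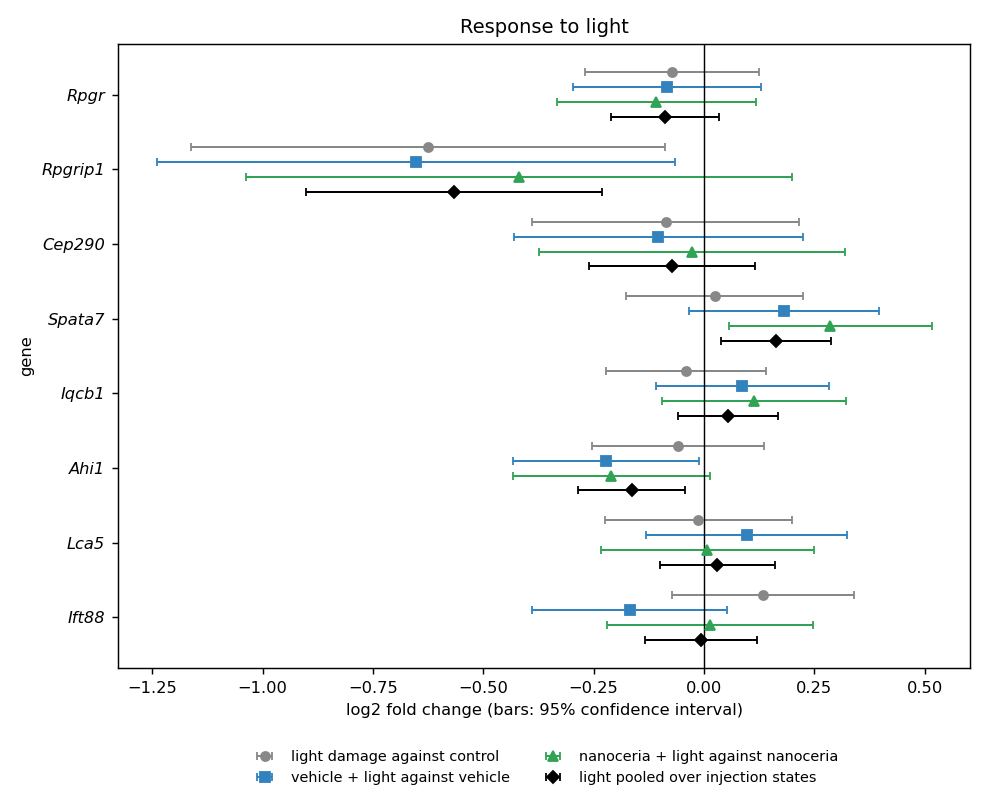
Log2 fold change of each member with light, for each injection state and pooled, with 95% confidence intervals. The pooled interval lies below 0 for Rpgrip1 and Ahi1 and above 0 for Spata7, and the interval of Rpgrip1 is the widest, as its within-group variation was the largest of the 8.

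In the plot of light responses the comparisons by injection state share no library with each other, while the pooled one uses all of theirs. No member was called in them by edgeR, beside 22.5% of all genes for light damage against control, 16.8% for vehicle plus light against vehicle and 13.9% for nanoceria plus light against nanoceria. At an unadjusted p under 0.05 there was 1 member in the first (Rpgrip1), 2 in the second (Ahi1 and Rpgrip1) and 1 in the third (Spata7). DESeq2 called 0 in each, and limma-voom called 1 in the first (Rpgrip1), 2 in the second (Rpgrip1 and Ift88) and 1 in the third (Ahi1).

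In the order of group means, Rpgrip1 was highest in vehicle and lowest in light damage, with the 3 groups without light above the 3 light groups. Each neighbouring pair in that order differed by less than the larger of its SDs. The same held for every neighbouring pair of group means of the other members, with 2 exceptions, nanoceria above control for Ahi1 and light damage above control for Ift88. Spata7 was highest in nanoceria plus light (28.8 ± 3.88 CPM, SD, n = 5) and vehicle plus light (27.4 ± 4.07 CPM, SD, n = 5), and its other 4 groups had means from 23.5 to 24.1 CPM.

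The level of Rpgrip1 and of Cep290 followed the level of the rod markers among the light-exposed libraries. How many of all genes followed the rod markers as closely was not counted. The question was whether members varied with the loss of rod transcripts from retina to retina, and each near-identical pair was averaged to 1 point. Across 16 light-exposed points, Rpgrip1 correlated with the mean log2 CPM of the 13 rod markers at Pearson's r = 0.831 (permutation p = 0.00012, adjusted p = 0.00096 over 16 relations) and a Spearman rank correlation of 0.753 (permutation p = 0.00111, adjusted p = 0.0144). Cep290 did so at r = 0.814 (permutation p = 0.00012, adjusted p = 0.00096) and a rank correlation of 0.732 (permutation p = 0.0018, adjusted p = 0.0144). Without the 2 points farthest from the median, nanoceria plus light 4 and 5, r was 0.704 and 0.676. With each group centred on its mean r was 0.837 for Rpgrip1 and 0.887 for Cep290. Within the light damage group alone (6 points) it was 0.79 and 0.763. There, light damage 1 and 2 had the highest rod markers (9.24 and 9.23), Rpgrip1 (152 and 181 CPM) and Cep290 (135 and 164 CPM). Light damage 5, next in rod markers (8.78), had the lowest Rpgrip1 of the group (79.3 CPM). Light damage 1 was also the shallowest library. The relation in this group without light damage 1 and 2 was not tested.

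Ift88 had r = 0.691 (permutation p = 0.00295, adjusted p = 0.0157), which dropped to 0.446 without the same 2 points, and its rank correlation of 0.564 did not pass (permutation p = 0.0249, adjusted p = 0.0998). For the other 5 members r lay between 0.28 (Iqcb1) and 0.573 (Rpgr), and none passed (permutation test, adjusted p from 0.0652 to 0.396). Across 13 points without light no relation passed, with r = -0.369 for Rpgrip1 and 0.188 for Cep290. Iqcb1 (r = 0.647) and Ahi1 (r = 0.618) had the highest values there (permutation p of 0.0177 and 0.0244, adjusted p = 0.0652 for both), and dropped to 0.207 and 0.351 without control 6 and control 1. The difference between the correlations with and without light was not tested.

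**Figure D3:**
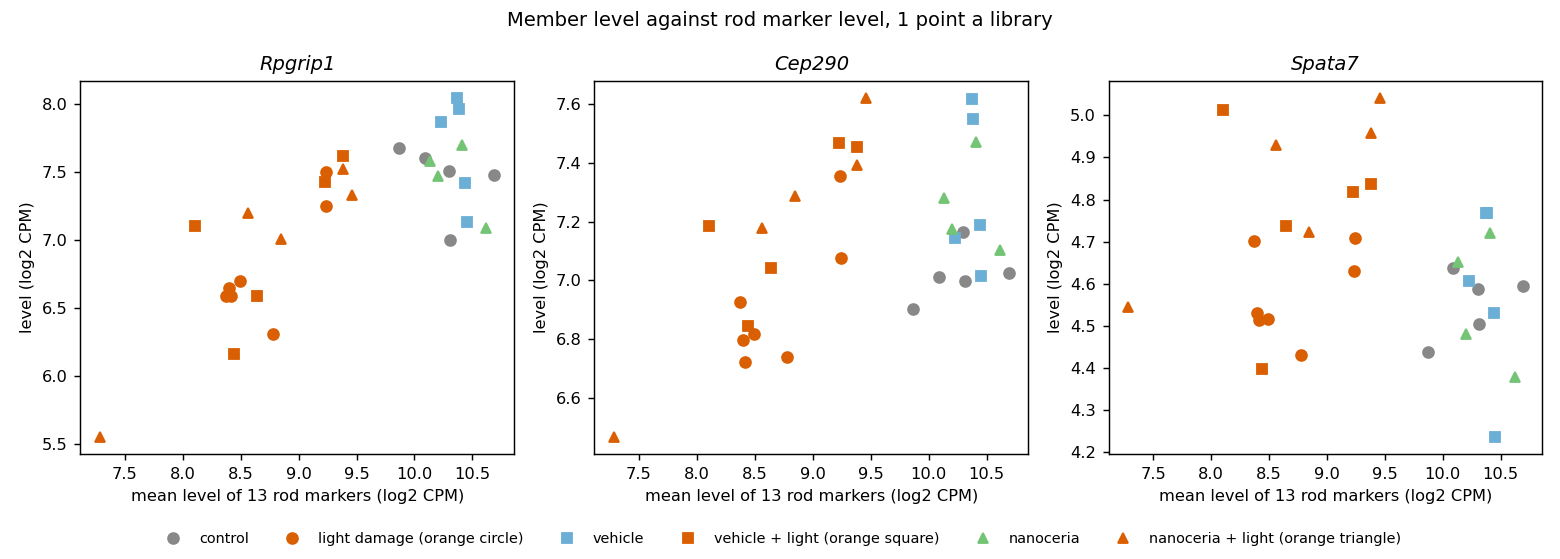
Level of Rpgrip1, Cep290 and Spata7 (log2 CPM) against the mean log2 CPM of the 13 rod markers, 1 point a library, with light-exposed libraries in orange. Among light-exposed points Rpgrip1 (r = 0.831) and Cep290 (r = 0.814) are higher where the rod markers are higher, and the relation of Spata7 (r = 0.399) did not pass.

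In that plot the library with the lowest rod markers, nanoceria plus light 4, is at the lower left for Rpgrip1 and Cep290. The light-exposed libraries with the highest rod markers reach Rpgrip1 levels of libraries without light, although the mean of their 13 rod markers is lower than in any library without light. In the same comparison of light with no light the rod transducin subunit Gnat1 changed by -3.21 ± 0.24 on the log2 scale and the rod transcription factor Nrl by -1.89 ± 0.19 (SE). Rpgrip1, at -0.57 ± 0.16, had the largest decrease of the 8 members. Markers of other retinal cells were read beside the 16.6% of all genes that fell and the 20.5% that rose. By edgeR, 3 of 7 fell and 1 rose for Mueller glia, 2 of 6 fell and 2 rose for bipolar cells and 2 of 6 fell for microglia, and no call was made among 5 amacrine and 6 ganglion cell markers. By injection state, 2 of the 6 microglia markers fell with light without injection, 0 with vehicle and 3 with nanoceria. Without light, 5 of the 6 were higher in nanoceria than in control, where 2.46% of all genes were called in either direction. Of the markers of the pigment epithelium, 3 of 5 fell and 1 rose, and their summed level was 1062 to 1736 CPM with light and 1447 to 2722 CPM without. Multiciliated cells, which bear motile cilia and use some of the same proteins, were read through 11 markers, of which 8 were tested, 2 rose (Dnai2, 1.21 ± 0.14, and Hydin, 0.37 ± 0.10, log2, SE) and the other 6 did not pass, a share near that of all genes. Their summed level was 10.85 to 18.8 CPM without light and 14.2 to 26.03 CPM with light. Among these markers Rsph4a was at 0 in some libraries, Dnah5 was at most 0.343 CPM, and Foxj1, which switches on motile cilia, was not analysed here. The part of rods and of these other cells in the members' values was not tested.

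No member passed in any comparison of an injection. The tests asked whether the injection itself, or the nanoceria in it, altered the members with or without light. The comparisons share libraries, since vehicle and nanoceria were both set against the same controls, and their values are given side by side for that reason. For vehicle against control edgeR called 0 members (0.0221% of all genes), 2 had an unadjusted p under 0.05 (Ahi1 and Ift88), DESeq2 called 0 and limma-voom 3 (Cep290, Ahi1 and Ift88, all higher). In that comparison limma-voom, with weights for library quality, called 1022 of all genes higher and 1190 lower, where edgeR called 2 and 2. For nanoceria against control edgeR, DESeq2 and limma-voom each called 0 (2.46% of all genes by edgeR), and 0 members had an unadjusted p under 0.05.

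For vehicle against control, Ift88 had the largest log2 fold change of the 8 members. It was at 17.2, 21.2, 21.7, 23.2 and 23.5 CPM in the vehicle libraries against 14.4 to 18.6 CPM in control. All but vehicle 1 were above every control library, and the last pair are the near-identical ones. The log2 fold change was 0.31 ± 0.11 for vehicle against control and 0.18 ± 0.11 for nanoceria against control (SE, edgeR adjusted p of 0.452 and 0.5), with 95% intervals from 6.69% to 44.99% and from -3.95% to 32.9%. Cep290 gave 0.30 ± 0.16 and 0.24 ± 0.17 and Ahi1 gave 0.22 ± 0.10 and 0.18 ± 0.11 in the same comparisons. Rpgrip1 gave 0.25 ± 0.29 and 0.00 ± 0.30, with wide 95% intervals, from -20.6% to 78.6% and from -34.8% to 53.9%. For both injections against control, edgeR called 0 members (1.07% of all genes), 2 had an unadjusted p under 0.05 (Ahi1 and Ift88), DESeq2 called 0 and limma-voom called 2 (Cep290 and Ift88).

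Nanoceria and vehicle were also compared directly. Without light the log2 fold changes of nanoceria against vehicle lay between -0.25 ± 0.30 (Rpgrip1) and -0.02 ± 0.11 (Rpgr), and under light they lay between -0.12 ± 0.11 (Lca5) and 0.08 ± 0.10 (Spata7, SE). No member was called by edgeR, DESeq2 or limma-voom in either comparison, none had an unadjusted p under 0.05, and edgeR called 0 of all genes, so the background was 0% in both. The 95% interval of Rpgrip1 was the widest, from -45.4% to 29.4% without light and from -34.0% to 48.3% under light. For Ahi1, Iqcb1 and Spata7 the intervals stayed within -17.2% and 22.3% in both comparisons.

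Under light, both injected groups were set against the same light damage libraries. Log2 fold changes of vehicle plus light and of nanoceria plus light against light damage were 0.20 ± 0.10 and 0.27 ± 0.10 for Spata7 and 0.28 ± 0.15 and 0.30 ± 0.15 for Cep290 (SE, edgeR adjusted p from 0.453 to 0.739). For the other 6 members they were smaller than 0.23 and above 0 in both. With edgeR 0 members were called for vehicle plus light (0.122% of all genes), for nanoceria plus light (0.0608%) and for both injections together (0.486%). The members with an unadjusted p under 0.05 numbered 0, 2 and 2 (Spata7 and Cep290), and DESeq2 and limma-voom called 0 in each. Rod markers overlapped between these 3 groups, at a mean log2 CPM of 8.37 to 9.24 in light damage, 8.11 to 9.38 in vehicle plus light and 7.29 to 9.46 in nanoceria plus light. Cone markers had 3.40 to 3.93, 2.43 to 3.70 and 2.45 to 3.79 in the same order. Their median log2 fold change against light damage was -0.26 with vehicle plus light and -0.36 with nanoceria plus light. For both injections together edgeR called 1 of 10 cone markers, lower. The part of cones in the members' values was not tested.

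**Figure D4:**
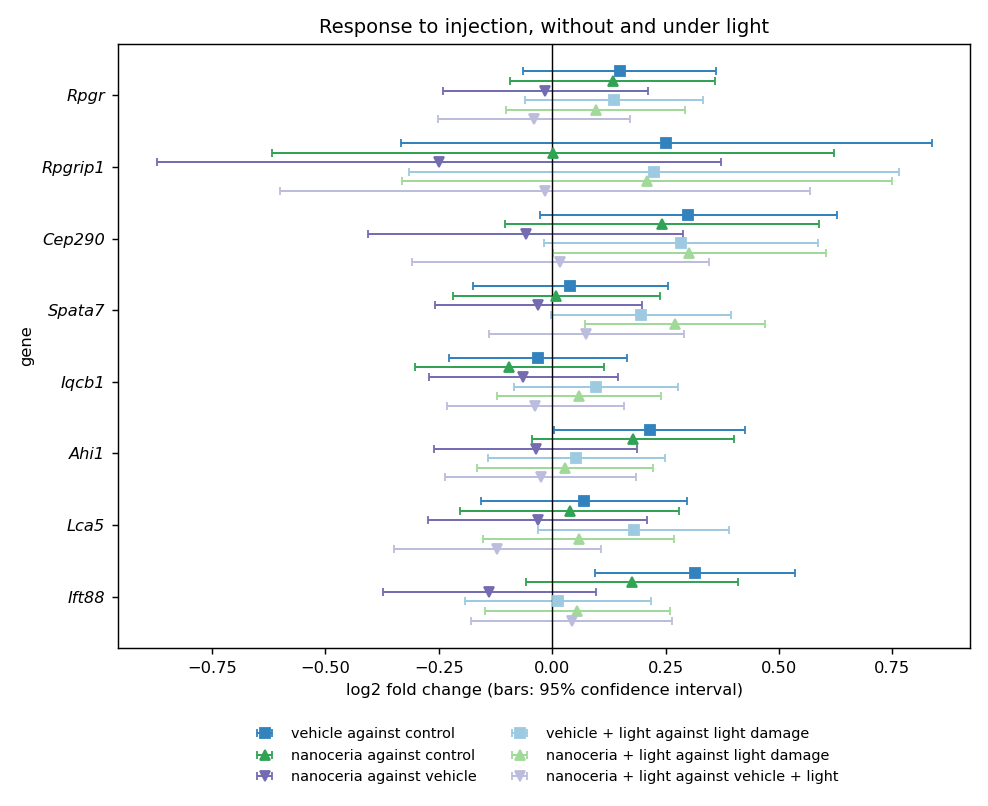
Log2 fold change of each member for each injection comparison without light (dark) and under light (pale), with 95% confidence intervals. The comparisons against control, or against light damage, share those libraries, and no member passed the edgeR test in any of the 6 comparisons.

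Whether an injection changed the response to light was tested as an interaction. For vehicle, edgeR called 0 members (0.0442% of all genes), and 1 had an unadjusted p just under 0.05, Ift88, whose light response was 0.13 ± 0.10 without injection and -0.17 ± 0.11 with vehicle. The difference was -0.30 ± 0.15 (log2, SE, edgeR adjusted p = 0.852). For nanoceria against vehicle edgeR called 0 members and 0 of all genes, a background of 0%, and 0 members had an unadjusted p under 0.05. In both tests DESeq2 and limma-voom called 0 members. The widest interval was that of Rpgrip1, whose light response with nanoceria minus that with vehicle was 0.23 ± 0.42, or from -34.9% to 112.5%.

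Genes of the same structures were read in 8 lists with 98 genes, 97 of them tested, that hold none of the 8 members. In the pooled comparison of light with no light 56 of the 97 fell and 10 rose, that is 57.7% lower and 10.3% higher, beside 16.6% lower and 20.5% higher for all genes tested. Their median log2 fold change was -0.21, and that of the 8 members -0.04. Scaling libraries by their totals alone moved the median of all genes from 0.02 to 0.09 and left 40 lower and 12 higher. On those totals 5036 of all genes were called higher and 1836 lower, against 3715 and 3000 with TMM. For light damage against control 38 of the 97 fell and 5 rose (10.6% and 11.9% of all genes). For vehicle plus light against vehicle 29 fell and 7 rose (7.17% and 9.67%), and for nanoceria plus light against nanoceria 25 fell and 6 rose (5.78% and 8.15%). These counts moved with the fit. For light damage against control 28 fell on library totals alone and 50 with limma-voom. For vehicle plus light against vehicle 17 fell on library totals alone, 21 with near-identical pairs summed and 48 with limma-voom. For nanoceria plus light against nanoceria 16 fell on library totals alone, 48 with limma-voom and 10, with 3 that rose, when only those groups were fitted. In the 10 injection comparisons and interactions edgeR called 0 of the 97, with medians from -0.01 to 0.11, and 0 to 17 of the 97 had an unadjusted p under 0.05. DESeq2 called at most 2 in any of these, and limma-voom at most 20, which was for vehicle against control (19 higher and 1 lower).

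**Figure D5:**
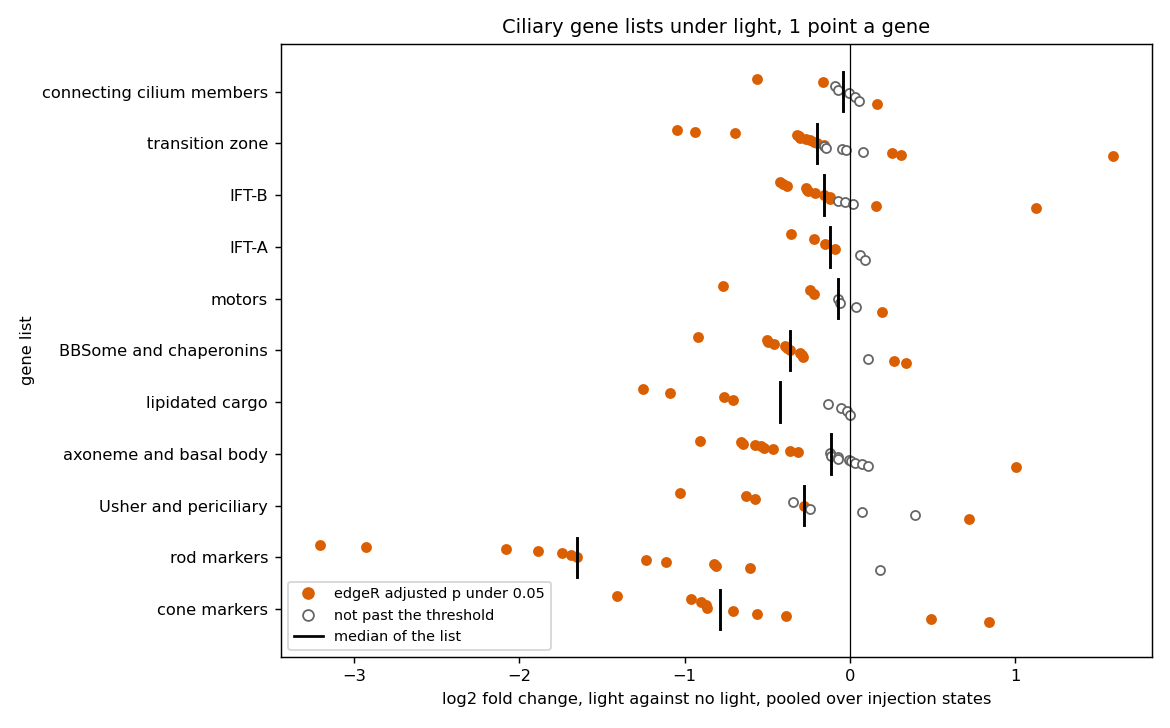
Log2 fold change with light, pooled over injection states, for each tested gene of the 8 members, of 8 other ciliary lists and of rod and cone markers. Filled points passed the edgeR test and the line is the median of a list, which is -0.04 for the members and -1.65 for the rod markers.

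In the transition zone list, the nearest kin of the members, 11 of 19 fell and 3 rose (median -0.20). Nphp4, a partner of Rpgrip1 in the nephrocystin module of the transition zone, had the largest change, 1.59 ± 0.08 (log2, SE, edgeR adjusted p = 3.92e-15), at 66.3 to 142 CPM in light-exposed libraries and 28.8 to 43.9 CPM without light. Cc2d2a and Tmem237, of the MKS module of the transition zone, fell by 1.05 ± 0.14 and 0.94 ± 0.09 on the log2 scale. The ranges with and without light did not overlap for Nphp4 or for Tmem237 (57.1 to 115 CPM with light and 118 to 235 CPM without). Those of Cc2d2a overlapped. How many of all genes separate in this way was not counted.

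Among the partners of Ift88 in IFT-B, 10 of 15 fell and 2 rose (median -0.16). Ift57 rose by 1.12 ± 0.08, from 20.2 to 26.5 CPM without light to 36.7 to 76.1 CPM with light, and Ift27 fell by 0.42 ± 0.07. In IFT-A, which returns cargo to the base of the cilium, 4 of 6 fell and the other 2 did not pass (median -0.12), led by Ift122 (-0.36 ± 0.07) and Wdr19 (-0.22 ± 0.05), and 1 fell and 1 rose when libraries were scaled by their totals alone. Of the motors, 3 of 7 fell and 1 rose (median -0.07), led by the kinesins Kif17 (-0.77 ± 0.11) and Kif3b (-0.22 ± 0.06).

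In the BBSome list, the coat of membrane cargo and its chaperonins, 10 of 13 fell and 2 rose (median -0.36). Bbs9, a subunit, changed by -0.92 ± 0.13, and the chaperonin Mkks by 0.34. Among carriers of lipidated and membrane proteins, 4 of 8 fell and the other 4 did not pass (median -0.42), with Unc119, which carries rod transducin, at -1.25 ± 0.14 and the tubby-like protein Tulp1 at -1.09 ± 0.12. Unc119 was measured at 182 to 545 CPM with light and 642 to 1272 CPM without.

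Of the axoneme and basal body list, 10 of 20 fell and 1 rose (median -0.12). Cep250, of the centriole linker, changed by -0.91 ± 0.06 and Cep164, of the distal appendages of the basal body, by -0.66 ± 0.06, and the kinase Mak, which limits the length of the photoreceptor axoneme in mice, rose by 1.00 ± 0.10. In the Usher and periciliary list 4 of 9 fell and 1 rose (median -0.28), with the scaffold Ush1c at -1.03 ± 0.15 and the scaffold Whrn at -0.63. The rod markers fell in the same libraries, and their part in the changes of these lists was not tested.

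Likeness of pattern was read as Pearson's r of log2 CPM over the 31 libraries, among 12959 genes with a symbol and a mean log2 CPM of at least 1. It is a description, since the libraries of a group share their treatment, and the near-identical pairs were not averaged here. The gene most like Rpgrip1 was Cdc23 (r = 0.931), then Tbc1d32 (0.928) and Rasgef1a (0.923). Cep290 was most like Lin28a (r = 0.923), Lekr1 (0.915) and Arl13b (0.901), and Ahi1 most like Isl1 (0.906), Fam171b (0.902) and Ckap5 (0.896). Spata7 was most like Zmym6 (0.859), Ccdc66 (0.844) and Zfp110 (0.836). For the other members the closest were Atm for Rpgr (0.849), Ikzf5 for Lca5 (0.852), Appl1 for Iqcb1 (0.823) and Kcnh6 for Ift88 (0.832).

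Among the members themselves, Rpgrip1 and Cep290 were the most alike of the 28 pairs over all libraries (r = 0.783), and also after each group was centred on its mean (0.888). These values also keep the near-identical libraries separate. The next after centring were Ahi1 and Iqcb1 (0.876, and 0.59 uncentred). Spata7 and Ahi1, which changed in opposite directions with light, had the lowest r over all libraries (0.145) and 0.432 after centring.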

How the data were processed

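Retinal polyA RNA was read from both ends. The authors deposited raw counts per gene, whole numbers with a different total in each library. Per the submitters' processing notes, the tools behind these counts include STAR 2.7.9a on the rn6 build, Trimmomatic 0.39, featureCounts of Subread 2.0.1, R 4.0 and DESeq2 1.30.1. Whether counting used strand, which annotation it used and how it treated multi-mapped reads is not given in the sources used here, so reads of overlapping genes may be shared. Of 42 labelled samples, 31 had a column and 11 were not analysed here.

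Of 32623 genes, 9389 had 0 counts in every library, and the edgeR filter (minimum count 10, minimum total 15) left out 14529 and kept 18094. One fit over all 31 libraries with a coefficient per group (R 4.3.3, edgeR 4.0.16, TMM scaling, robust quasi-likelihood test) gave 14 comparisons, with Benjamini-Hochberg adjustment over all genes tested. Pooled light is the mean of the 3 light groups minus the mean of the other 3. Levels are CPM, correlations use log2 CPM with a prior count of 2, and intervals cover 95%. Correlations had 100000 permutations, 2-sided. The edgeR p-values set group differences against the spread between these libraries, of which 2 near-identical pairs may not be separate animals. The edgeR fit was also run on simulated counts of independent libraries. These held no near-identical pairs and no broad loss of rod transcripts, so that run cannot speak for these features of the data.

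The members and gene lists were chosen with earlier results of these data known. Beside the members, the text names from each ciliary list the 2 genes with the smallest p, every called gene that changed at least 2-fold with pooled light, rod reference genes, and up to 3 genes with the most similar pattern to a member; markers of multiciliated cells that rose were named after their values were seen. Promoters came from RefSeq (GRCr8), matched by symbol. Alternatives were the size factors or the Wald test of DESeq2 1.42.0, library totals alone, no filter, only the groups compared, limma-voom (limma 3.58.1), the replicate number as a block, Y-linked level as a covariate, near-identical pairs summed, and leaving out each library.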

Additional observations from a re-analysis of the deposited data

Results flagged for a closer look

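In the 48 sets of member values by group, the highest and the lowest library were compared with the rest by Dixon's criterion. Of these, 0 passed it, where chance would give about 1 in 20. With 4 to 7 libraries a group, the criterion picks out only very distant values, so a library can stand apart and not pass. Rpgrip1 in nanoceria plus light 4 was at 46.7 CPM, beside 129 to 184 CPM in the rest of its group, and did not pass.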

How the results depend on the processing

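The count of members called kept within 1.5 times of its value in 313 of 321 comparisons with an alternative. The 8 exceptions, from 0 by edgeR in each case, were as follows. For light damage against control 1 (Rpgrip1) was called with only the groups compared, with limma-voom and without light damage replicate 2, so that leaving out a library gave 0 to 1. With limma-voom 2 were called for vehicle plus light against vehicle (Rpgrip1 and Ift88), 1 for nanoceria plus light against nanoceria (Ahi1), 3 for vehicle against control (Cep290, Ahi1 and Ift88) and 2 for any injection without light (Cep290 and Ift88). For nanoceria plus light against nanoceria 1 (Spata7) was called without nanoceria plus light replicate 4, and leaving out a library gave 0 to 1. Rpgrip1 was called for pooled light under all 8 settings (log2 fold change from -0.71 to -0.50) and without each of the 31 libraries (-0.62 to -0.49). Spata7 lost that call with the size factors of DESeq2 (edgeR adjusted p = 0.0818), the Wald test of DESeq2 (adjusted p = 0.0748) and limma-voom (adjusted p = 0.147), and without control 6, light damage 1, nanoceria 3 or 5, vehicle 2 or 3, nanoceria plus light 1, 2 or 5 or vehicle plus light 1. Ahi1 lost it with library totals alone (-0.09, edgeR adjusted p = 0.319), with near-identical pairs summed and without control 1, nanoceria 1 or vehicle plus light 4. Rpgr gained a call with limma-voom (-0.16, adjusted p = 0.0187). For all these changes the cause was not tested. Of 2568 values of members under alternatives, 2537 kept their side of the threshold, 18 lost a call, 13 gained a call, and 0 called values changed sign. Replicate numbers were not taken to pair the samples, as the labels state no pairing. Libraries with the same number were somewhat more alike than others. Of 60 pairs with the same number, 23 had a correlation of their deviations from group means over 0.1 (-0.353 to 0.381, median 0.078). Of 338 pairs with different numbers, 75 did (median -0.00581). Whether the numbers mark a batch or a pairing was not tested. With a replicate block the pooled light comparison called the same 3 members and the other comparisons 0, so the block changed no call of a member. Depth limits the shallowest library, light damage 1, where the member with the fewest reads, Rpgr, had 215 counts.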
